A study of Drosophila melanogaster with 6 samples.

Results

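The cytosolic ribosomal proteins are the proteins that, with ribosomal RNA, build the large and the small subunit of the ribosome. Their transcripts were followed in heads of adult Drosophila melanogaster. Members were taken by name: FlyBase gene IDs of the deposited table were matched to symbols, and symbols that begin with RpL or RpS followed by a number, a P and a number, or an A were kept. This gave 87 of the 15886 rows of the table, 51 with large subunit names and 36 with small subunit names. Genes named RpS10b, RpL27A, RpL31, RpL19 and RpS12 in the name table have IDs with no row of their own in the file and were not analysed here. The small subunit gene sta carries a symbol outside the rule and was not counted.

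The libraries compared are 3 of RNAi-GLAD and 3 of RNAi-Ctrl. RNAi-GLAD flies had the genotype TubGS>RNAi-GLAD and expressed an RNA interference construct named GLAD, and RNAi-Ctrl flies had the genotype TubGS>RNAi-GFP with a construct against GFP, a jellyfish protein that flies lack. In all 6 libraries TubGS, a GeneSwitch driver with a tubulin promoter that acts broadly in the body, was switched on with RU486 in the food, and heads were taken on day 7. The ages of the flies beyond that, their sex and the gene meant by GLAD are not given in the labels, so no knocked-down gene could be checked. Each library pooled 100 brains per the labels' protocols while the tissue label reads head; nothing says that replicates came from separate cultures, so the spread behind each p-value is that of these libraries alone and may be technical.

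The ribosome decodes messenger RNA in the small subunit and joins amino acids in the large subunit, and most of its proteins are present in a single copy per ribosome. In flies, loss of a copy of many ribosomal protein genes gives the Minute phenotype of slow development and short bristles. Several of these genes have a paralogue, and some fly paralogues are known mainly from the testis or ovary.

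Values are FPKM, fragment counts divided by gene length and by library size, so levels of genes of different length can be compared. The low values imply library totals of 22.1 to 29.5 M fragments (M for mega). Photoreceptor transcripts were abundant (ninaE, the main rhodopsin, at 25150 to 26330 FPKM), so the material included eyes, and the neuronal markers elav, nSyb, Syt1, brp and Syx1A were detected in every library. The libraries numbered 3 stood apart from their groups: the transcript lncRNA:CR40469 had 4.20 and 4.77 FPKM in the libraries RNAi-GLAD 1 and 2 and 1718 FPKM in the library labelled RNAi-GLAD 3. In RNAi-Ctrl it had 1935, 2198 and 5.86 FPKM, the last in the library labelled RNAi-Ctrl 3. Each result is therefore given over all 6 libraries as labelled and over the 4 libraries numbered 1 and 2. A direction given for these 4 takes their labels as right. Whether the labels of the libraries numbered 3 are exchanged was not tested, and the comparison of all 6 depends on it.

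Most of the family was expressed at a high and even level. Of the 87 genes, 74 averaged at least 400 FPKM over the 6 libraries, 44 of the large and 30 of the small subunit, and 54 averaged at least 1000 FPKM. They made up 29.2% of the 253 genes in the whole table at that level. The median of these 74 means was 1173 FPKM, and the middle of the distribution was narrow, with quartiles at 981 and 1484 FPKM. The large subunit median was 1198 FPKM and the small subunit median was 1149 FPKM.

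RpL41, a peptide of 25 residues, was the highest member with 4446, 4743 and 4959 FPKM in RNAi-GLAD and 4800, 5152 and 5071 FPKM in RNAi-Ctrl. RpL39, a short protein that lines the exit tunnel of the large subunit, followed with 1970, 1931 and 2166 FPKM in RNAi-GLAD and 2081, 2416 and 2362 FPKM in RNAi-Ctrl. The groups overlapped for both genes, and exons of RpL39 overlap those of RpL12 on the opposite strand. RpL29, RpS18 and RpL5 were also among the highest, with means of 2006, 1902 and 1773 FPKM. The ranges of RpL29 and RpS18 over the 6 libraries overlap. The exons of RpL41 and RpL39 are short (320 and 288 bp), and over the 74 genes level and exon length had a Spearman rho of -0.31, a description across genes that share the same libraries.

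Variation between libraries was small for most of these genes. The coefficient of variation (SD over mean) across all 6 libraries had a median of 4.22% over the 74 genes, against 8.68% over the 179 other genes of at least 400 FPKM, and was under 5% for 51 of them. RpS26, at 1603, 1625 and 1670 FPKM in RNAi-GLAD and 1622, 1649 and 1627 FPKM in RNAi-Ctrl, varied least (1.43%). RpL22 and RpL11, which binds 5S ribosomal RNA together with RpL5, followed with 1.55% and 1.84%. Only 6 of the 74 genes were above 10%: RpS21 (34.5%), RpL18 (29.1%), RpS25 (25.1%), RpL7A (23.1%), RpL15 (21.1%) and RpL4 (10.2%). These genes rested on at least 7030 fragments per library by the implied totals, where counting alone gives an error of about 1.19%.

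**Figure D1:**
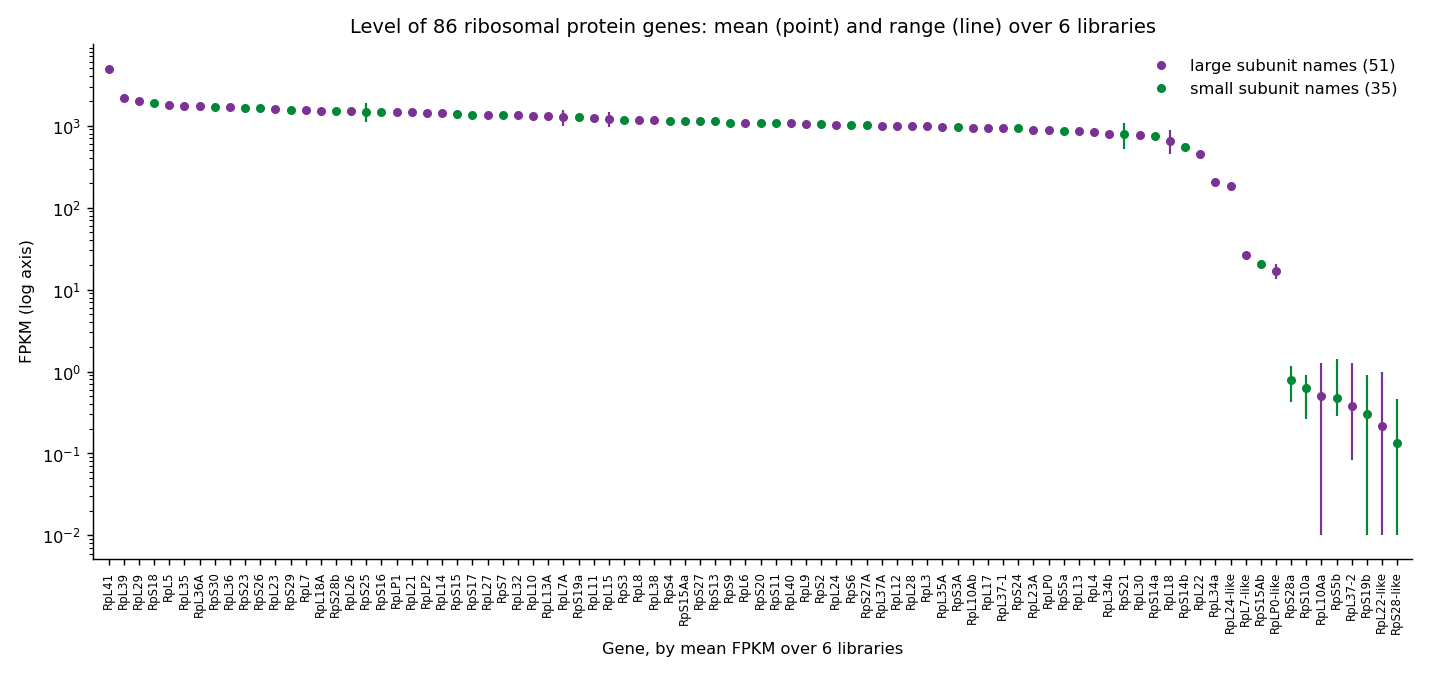
Level of 86 of the 87 genes in FPKM on a log axis, ordered by mean, with the point at the mean and the line over the range of the 6 libraries; a lower end drawn at 0.01 stands for a value of 0. A plateau of 73 drawn genes above 400 FPKM is followed by 5 genes between 16.7 and 205 FPKM and 8 genes under 1 FPKM, and the long lines on the plateau are RpS21, RpL18, RpS25, RpL7A and RpL15.

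Over the 6 libraries as labelled, no member passed the test between RNAi-GLAD and RNAi-Ctrl. Of the 79 members with a mean of at least 1 FPKM, 0 passed limma on log2(FPKM + 1) at an adjusted p under 0.05 (smallest adjusted p = 0.999), where 0.00% of all 9631 genes tested passed. At an unadjusted p under 0.05 there were 0 members and 112 genes in all. There were 0 members whose groups did not overlap, against 4.0% of all genes tested (2.82% higher and 1.17% lower in RNAi-GLAD). Fold changes lay between -0.33 and 0.23 on the log2(FPKM + 1) scale, with a median of -0.01, beside a median of 0.01 over all genes. The median of the members turned to 0.02 with quantile scaling, so the family as a whole was given no direction. For 73 of the 79 members the 95% interval of the difference lay within 0.5 of 0 on the log2 scale, against 77.3% of all genes.

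By limma, RpL39 had the smallest p of the family (adjusted p = 0.999), with a log2 fold change of -0.18 ± 0.08 (SE). RpS3A (-0.09), RpL29 (-0.08), RpL41 (-0.09), RpL37-1 (-0.08), RpS13 (-0.08), RpL36 (-0.06), RpL38 (-0.07), RpL40 (-0.11) and RpL32 (-0.06) completed the 10 members with the smallest p, and none of them passed. RpS3A stood at 892, 934 and 976 FPKM in RNAi-GLAD and 952, 1035 and 992 FPKM in RNAi-Ctrl. It is the single member on chromosome 4.

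As labelled, the medians of both subunits were -0.01. A positive fold change was found for 19 of 48 large subunit genes and 12 of 31 small subunit genes, beside 55.7% of all genes. With quantile scaling these counts were 29 of 48 and 20 of 31, beside 48.6% of all genes, so neither subunit was given a direction. The summed FPKM of the large subunit genes divided by that of the small subunit genes was 1.53, 1.54 and 1.56 in RNAi-GLAD 1, 2 and 3, and 1.57, 1.57 and 1.55 in RNAi-Ctrl 1, 2 and 3. Over the 6 libraries these ranges overlap. In the libraries numbered 1 and 2 they do not, with a ratio of 1.53 ± 0.00622 in RNAi-GLAD and 1.57 ± 0.000141 in RNAi-Ctrl (SD, n = 2 each). This difference was not tested. The median fold changes of large and small subunit genes in these 4 libraries were both 0.03. The sums depend on single genes. RpL41 averaged 4595 FPKM in RNAi-GLAD 1 and 2 and 4976 FPKM in RNAi-Ctrl 1 and 2, and RpS25 1805 and 1138 FPKM. RpS21, at 538 and 1041 FPKM, moved the ratio the other way. The members counted held 14.9%, 15.1% and 15.6% of the table's FPKM in RNAi-GLAD and 15.1%, 15.5% and 15.6% in RNAi-Ctrl. The genes without a row of their own and sta are not in these sums or ratios.

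Single libraries moved the family together more than the groups did. RNAi-Ctrl 3 held the highest value for 51 of the 74 abundant genes and RNAi-Ctrl 1 the lowest for 43, while RNAi-GLAD 1 held the lowest for 20. Relative to each gene's mean over the 6 libraries, the median of the abundant genes was -0.02, 0.01 and -0.01 log2 units in RNAi-GLAD 1, 2 and 3 and -0.06, 0.01 and 0.08 log2 units in RNAi-Ctrl 1, 2 and 3. With median-of-ratios scaling the same medians were -0.05, 0.02 and -0.01 in RNAi-GLAD and -0.04, 0.02 and 0.07 in RNAi-Ctrl.

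With the libraries numbered 1 and 2 alone, a handful of members stood far outside the rest. Limma called 5 of the 79 members (6.33%), where it called 5.45% of all 9661 genes tested, a share near that of the members. RpL15, RpL18 and RpS25 were higher in RNAi-GLAD (3.80% of members, against 4.10% of all genes), and RpL7A and RpS21 were lower (2.53%, against 1.36%). At an unadjusted p under 0.05 there were 10 of the 79 members and 2409 of all 9661 genes, a smaller share of the members than of all genes. The median fold change was 0.03 over the members and 0.02 over all genes.

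RpL18, a protein of the large subunit (3L, 7240203 to 7241351, BDGP6), was at 792 and 819 FPKM in RNAi-GLAD 1 and 2 and had 458 and 497 FPKM in the libraries RNAi-Ctrl 1 and 2. The library labelled RNAi-GLAD 3 had 501 FPKM and that labelled RNAi-Ctrl 3 had 879 FPKM, so each number 3 library sat with the other group. Over the 4 libraries the log2 fold change was 0.76 ± 0.06 (SE, limma adjusted p = 0.0195), and over all 6 it was 0.23 ± 0.31. BHD, on the opposite strand with overlapping exons, was at 4.52 to 5.94 FPKM in the 6 libraries.

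RpS25, a protein of the small subunit head (3R, 11215028 to 11216287), had the same order of libraries. It was at 1789 and 1821 FPKM in RNAi-GLAD 1 and 2 and 1172 FPKM in RNAi-GLAD 3, and had 1102 and 1174 FPKM in the libraries RNAi-Ctrl 1 and 2 and 1871 FPKM in RNAi-Ctrl 3. Its log2 fold change was 0.67 ± 0.06 over the 4 libraries (adjusted p = 0.0204 by limma) and 0.22 ± 0.26 over the 6.

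RpL15, also of the large subunit (3L, 27267255 to 27268445), was at 1369, 1489 and 996 FPKM in RNAi-GLAD and at 957, 993 and 1470 FPKM in RNAi-Ctrl. Its log2 fold change was 0.55 ± 0.07 over the 4 libraries (adjusted p = 0.0314 by limma) and 0.18 ± 0.22 over the 6. A snoRNA lies within its exons on the same strand.

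RpS21, a small subunit protein (2L, 2856070 to 2857029), showed the largest difference of the family. It was at 557 and 520 FPKM in RNAi-GLAD 1 and 2 and 1041 FPKM in RNAi-GLAD 3, and had 1000.05 and 1082 FPKM in the libraries RNAi-Ctrl 1 and 2 and 557 FPKM in RNAi-Ctrl 3. The means of the libraries numbered 1 and 2 were 538 ± 26.0 FPKM in RNAi-GLAD and 1041 ± 58.3 FPKM in RNAi-Ctrl (SD, n = 2 each). The log2 fold change was -0.95 ± 0.07 over the 4 libraries (adjusted p = 0.0163 by limma) and -0.33 ± 0.36 over the 6.

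RpL7A of the large subunit (X, 6530897 to 6533348) was the other lower gene, at 1040, 981 and 1546 FPKM in RNAi-GLAD and at 1495, 1570 and 993 FPKM in RNAi-Ctrl. Its log2 fold change was -0.60 ± 0.06 over the 4 libraries (adjusted p = 0.0253 by limma) and -0.19 ± 0.24 over the 6. These 5 genes lie on 4 chromosome arms, and within each gene the 6 values fall at a high and a low level with none in between.

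The number of calls depended on single libraries. Without RNAi-GLAD 1, RpL18 and RpS21 passed; without RNAi-GLAD 2, RNAi-Ctrl 1 or RNAi-Ctrl 2, 0 members passed, with smallest adjusted p of 0.0536, 0.148 and 0.140 by limma. The fold changes of the 5 genes kept their sign each time. RNAi-Ctrl 1 stood apart in the yolk protein genes, which are among the fat body markers read. Yp1 was at 1.42, 0.735 and 2.28 FPKM in RNAi-GLAD and 296, 3.28 and 1.75 FPKM in RNAi-Ctrl. Yp2 and Yp3 were highest in RNAi-Ctrl 1 (98.6 and 343 FPKM). The fat body markers Lsp2 and apolpp were not. Lsp2 was lowest in RNAi-Ctrl 1, at 63.4 FPKM against 112 to 462 FPKM elsewhere. The value of apolpp there, 453 FPKM, lay within its range elsewhere of 357 to 592 FPKM. The 5 fat body markers, all detected, summed to 577, 803 and 888 FPKM in RNAi-GLAD and 1253, 703 and 1073 FPKM in RNAi-Ctrl, and their part in these calls was not tested.

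Below the threshold, other members had the same order of libraries with smaller differences. RpL4 was at 882, 908 and 778 FPKM in RNAi-GLAD and 748, 763 and 948 FPKM in RNAi-Ctrl (log2 fold change 0.24 ± 0.05 over the 4 libraries, adjusted p = 0.0773 by limma). RpS30, made as a fusion to a ubiquitin-like protein, was at 1793, 1873 and 1575 FPKM in RNAi-GLAD and 1560, 1582 and 1914 FPKM in RNAi-Ctrl (0.22 ± 0.05, adjusted p = 0.108). RpL40, made as a fusion to ubiquitin, had the opposite order at 983, 948 and 1154 FPKM in RNAi-GLAD and 1140, 1179 and 995 FPKM in RNAi-Ctrl (-0.26 ± 0.05, adjusted p = 0.0765). In each of these genes the groups did not overlap in the 4 libraries and overlapped in the 6. RpL37-1 (-0.16) also had a p among the 10 smallest. The small subunit gene sta, outside the name rule, was at 1299, 1264 and 1109 FPKM in RNAi-GLAD and 1034, 1065 and 1340 FPKM in RNAi-Ctrl (0.29 ± 0.05, adjusted p = 0.0627).

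**Figure D2:**
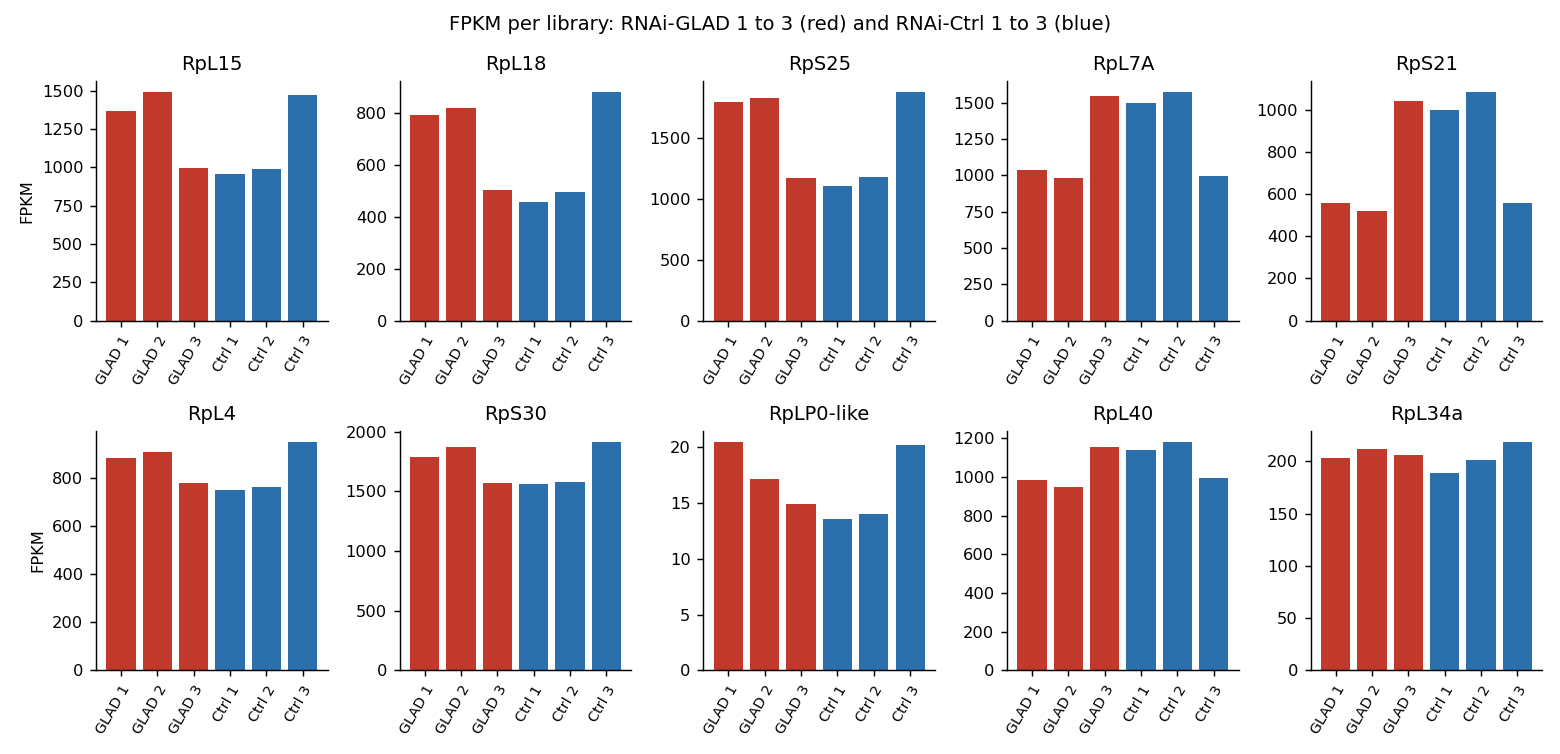
FPKM in each library for the 5 members called in the 4 libraries numbered 1 and 2 (top row) and 5 other members (bottom row), with RNAi-GLAD in red left of RNAi-Ctrl in blue. In the top row RNAi-GLAD 3 is level with RNAi-Ctrl 1 and 2, and RNAi-Ctrl 3 with RNAi-GLAD 1 and 2, while RpL34a shows little difference between libraries.

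The rest of the family differed little in the 4 libraries. For 59 of the 79 members the fold change was under 0.1 in size on the log2 scale, and for 10 it was above 0.2. The groups did not overlap for 40 members (50.6%, against 56.5% of all genes), with 25 on the higher side (31.6%, against 32.5% of all genes) and 15 on the lower side (19.0%, against 24.0%). The median of the large subunit genes and that of the small subunit genes were both 0.03, with 27 of 48 and 19 of 31 genes positive, beside 54.7% of all genes. They were 0.0052 and 0.0023 with median-of-ratios scaling and 0.0019 and -0.0011 with trimmed-mean scaling, so the small subunit median turned sign. By chromosome arm the medians were 0.02 on 2L (17 genes), 0.03 on 2R (17), 0.03 on 3L (13), 0.03 on 3R (18) and -0.01 on X (13).

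The difference between the libraries numbered 3 ran opposite to that between the libraries numbered 1 and 2. These are separate libraries, and over the 79 members Pearson's r between both differences was -0.94 and Spearman's rho -0.67, a description across genes whose points share the same libraries. Over all 9661 genes r was -0.56 and rho -0.67. All 25 members that were higher without overlap in RNAi-GLAD 1 and 2 had a negative difference between RNAi-GLAD 3 and RNAi-Ctrl 3. A negative sign there was common across the family. The median of the abundant genes relative to each gene's mean was -0.01 log2 units in RNAi-GLAD 3 and 0.08 in RNAi-Ctrl 3. The share over all genes without overlap was not counted. Of the 15 members that were lower without overlap, 10 had the opposite sign in the libraries numbered 3. Of all 79 members, 58 had opposite signs (73.4%), against 75.1% of all genes, a share near that of the members. RpL39 was among the members with the same sign in both, with -0.20 ± 0.09 in the 4 libraries and -0.13 between the libraries numbered 3.

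**Figure D3:**
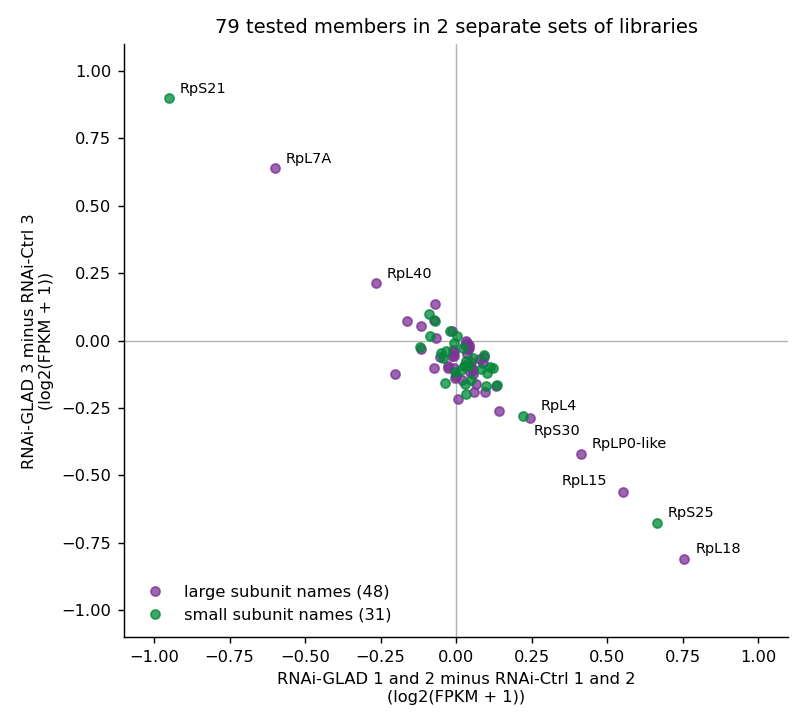
Difference between RNAi-GLAD and RNAi-Ctrl for the 79 tested members, as log2(FPKM + 1), with numbers 1 and 2 on the horizontal axis and number 3 on the vertical axis, with large and small subunit genes in separate colours. RpS21 and RpL7A lie at the upper left and RpL18, RpS25 and RpL15 at the lower right, and most other members lie near the centre.

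Among the paralogue pairs, the less abundant gene was well expressed in some and close to 0 in others. RpS14a and RpS14b, neighbours on X, encode the same protein and were shared most evenly. RpS14b held 44.0%, 41.1% and 41.8% of the pair's FPKM in RNAi-GLAD and 43.3%, 43.2% and 43.4% in RNAi-Ctrl, with overlapping groups. The labels do not say how reads common to both genes were counted, so their shares are uncertain, as are those of the other close copies.

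RpL34a held 20.7%, 21.3% and 20.4% of the RpL34 pair in RNAi-GLAD, against 19.5%, 19.8% and 20.3% in RNAi-Ctrl. The groups touch but do not overlap (20.8 ± 0.437% and 19.9 ± 0.378%, SD, n = 3 each), and the gap between RNAi-GLAD 3 and RNAi-Ctrl 3 is smaller than the spread within either group. RpL34a itself was at 203, 212 and 206 FPKM in RNAi-GLAD and 188, 201 and 218 FPKM in RNAi-Ctrl, and its partner RpL34b at 775, 786 and 807 FPKM in RNAi-GLAD and 778, 815 and 861 FPKM in RNAi-Ctrl. RpS15Ab held 1.84%, 1.86% and 1.81% of its pair in RNAi-GLAD and 1.56%, 1.73% and 1.88% in RNAi-Ctrl, with overlap over the 6 libraries.

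The genes named -like are not all ribosomal parts. RpL24-like, RpLP0-like and RpL7-like resemble yeast factors that take part in assembling the large subunit. RpL24-like was abundant, at 192, 177 and 183 FPKM in RNAi-GLAD and 184, 186 and 189 FPKM in RNAi-Ctrl. RpL7-like was at 27.0, 29.2 and 23.5 FPKM in RNAi-GLAD and 24.7, 26.4 and 26.5 FPKM in RNAi-Ctrl. Both overlapped between the groups. RpLP0-like was at 20.5, 17.1 and 14.9 FPKM in RNAi-GLAD and 13.6, 14.1 and 20.2 FPKM in RNAi-Ctrl, the order of libraries seen for RpL18, with a log2 fold change of 0.41 ± 0.10 over the 4 libraries that did not pass (adjusted p = 0.0991 by limma). Its partner RpLP0, the base of the ribosomal stalk, was at 880, 883 and 925 FPKM in RNAi-GLAD and 842, 884 and 926 FPKM in RNAi-Ctrl. Exons of RpLP0-like overlap those of Jra on the opposite strand, which was at 32.8, 28.6 and 24.3 FPKM in RNAi-GLAD and 25.9, 24.6 and 27.7 FPKM in RNAi-Ctrl.

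**Figure D4:**
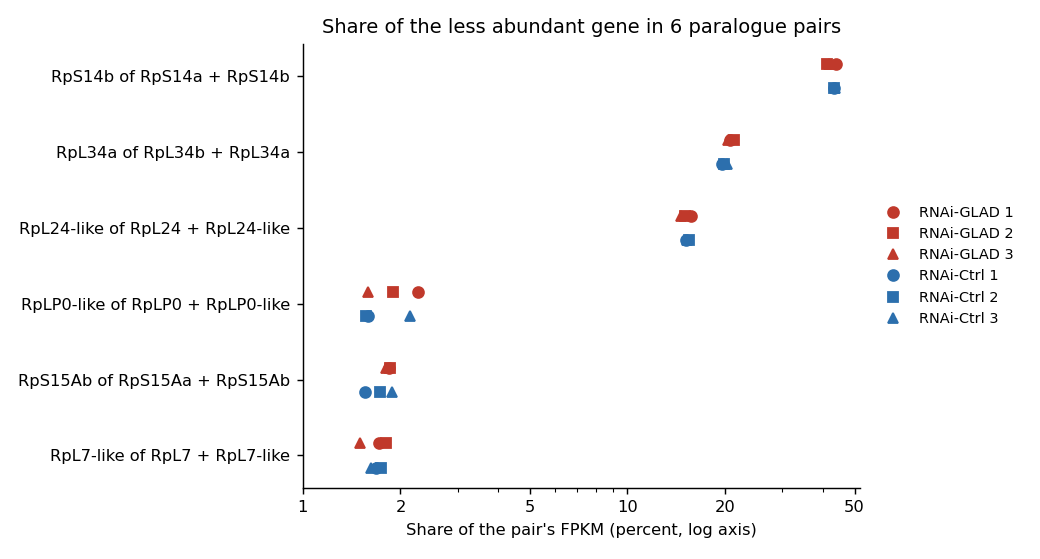
Share of the less abundant gene in the summed FPKM of its pair, in percent on a log axis, for the 6 pairs in which it held over 1% in every library, with RNAi-GLAD in red above RNAi-Ctrl in blue. RpLP0-like ranges from 1.57% to 2.27% with the libraries numbered 3 on the far side of their groups, and RpL34a lies between 19.5% and 21.3%.

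A set of 8 paralogues averaged under 1 FPKM and was not tested: RpL10Aa, RpL22-like, RpL37-2, RpS5b, RpS10a, RpS19b, RpS28a and RpS28-like. They rested on 0 to 31 fragments per library, while their partners RpL10Ab, RpL22, RpL37-1, RpS5a, RpS19a and RpS28b were all above 400 FPKM; the partner of RpS10a was not analysed here. The share of RpS28a in its pair did not overlap between the groups but rested on 3 to 8 fragments per library. RpS28a, just under the limit of 1 FPKM, averaged 0.784 FPKM, and RpLP0-like, the next member above it, averaged 16.7 FPKM. RpL22-like is known from the testis, and RpS5b and RpS19b from the germ line.

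RNAi-GLAD 1 stood out among these low genes. RpS5b was at 1.42, 0.284 and 0.290 FPKM in RNAi-GLAD and at 0.300, 0.312 and 0.289 FPKM in RNAi-Ctrl. RpL22-like was at 0.980 FPKM in RNAi-GLAD 1 and listed at 0 in RNAi-GLAD 2 and 3, against 0.219, 0.0912 and 0 FPKM in RNAi-Ctrl. RNAi-GLAD 1 held the highest value for 5 of the 8 genes, and their sum was 7.27, 2.19 and 2.51 FPKM in RNAi-GLAD 1, 2 and 3 and 2.53, 2.53 and 3.53 FPKM in RNAi-Ctrl 1, 2 and 3. The summed FPKM of 6 testis markers was also highest in RNAi-GLAD 1. It was 8.27, 0.705 and 3.90 FPKM in RNAi-GLAD 1, 2 and 3 and 5.04, 7.31 and 5.71 FPKM in RNAi-Ctrl 1, 2 and 3. The markers dj (4.01 FPKM) and Pglym87 (3.08 FPKM) were highest in RNAi-GLAD 1, as were aly, comr and Mst84Da at 0.148 FPKM or less. By contrast, topi was at 0.872, 0.535 and 3.3 FPKM in RNAi-GLAD and 4.47, 4.62 and 0.600 FPKM in RNAi-Ctrl. The 4 ovary markers found summed to 0.121 to 0.312 FPKM. The summed FPKM of the 4 digestive markers was highest in RNAi-GLAD 1 too, at 362, 149 and 64.8 FPKM in RNAi-GLAD and 150, 170 and 153 FPKM in RNAi-Ctrl. Of these markers, alphaTry, betaTry and lambdaTry were highest in RNAi-GLAD 1. Amy-p was not, at 128 FPKM there against 149 FPKM in RNAi-GLAD 2 and 137 FPKM in RNAi-Ctrl 3. The part of other tissues in these values was not tested, and in bulk samples more cells of a type and more RNA per cell cannot be told apart.

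Other genes of the translation machinery were read from 3 lists. Over the 6 libraries, 0 of 28 ribosome biogenesis genes, 0 of 32 translation factors and 0 of 20 genes of growth control, ribosomal stress and rescue passed limma, and 0 of each had an unadjusted p under 0.05. Their median log2 fold changes were 0.07, 0.04 and 0.03, beside 0.01 over all genes, and that of the biogenesis genes turned to -0.01 without RNAi-Ctrl 2. The smallest p belonged to Nmd3, Sbds and Mybbp1A (-0.06, 0.14 and 0.10) in the first list, eIF3g1, eIF3e and eRF3 (0.12, 0.10 and 0.17) in the second, and M1BP, CG11414 and Tsc1 (0.11, 0.09 and 0.08) in the third.

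In the 4 libraries numbered 1 and 2, 6 genes of these lists were called and all were higher in RNAi-GLAD, where 4.10% of all genes were called higher. Xrp1, a transcription factor known in flies for its induction when a ribosomal protein gene is lost, was at 380, 417 and 269 FPKM in RNAi-GLAD and 231, 245 and 423 FPKM in RNAi-Ctrl, the order of libraries seen for RpL18. Its log2 fold change was 0.74 ± 0.07 (adjusted p = 0.0216 by limma), and it was the single call of 20 genes. Its partner Irbp18 was at 25.6, 22.2 and 21.6 FPKM in RNAi-GLAD and 19.2, 18.4 and 24.8 FPKM in RNAi-Ctrl and did not pass (0.33 ± 0.08, adjusted p = 0.110).

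Over all genes tested in the 4 libraries, 4.10% were called higher and 1.36% lower, 54.7% had a positive fold change and the median was 0.02. Among 32 translation factors, 3 were called higher and 0 lower, with 26 positive fold changes and a median of 0.12. The subunit eIF2beta of the factor that brings the initiator tRNA was at 162, 164 and 107 FPKM in RNAi-GLAD and 89.99, 86.8 and 185 FPKM in RNAi-Ctrl (0.87 ± 0.05, adjusted p = 0.0105 by limma). The initiation factor subunit eIF3d1 (0.42 ± 0.06, adjusted p = 0.0366) and the termination factor eRF3 (0.42 ± 0.05, adjusted p = 0.0348) were called too. Among 28 biogenesis genes 2 were called higher and 0 lower, with 25 positive and a median of 0.22: eIF6, which keeps free large subunits from joining (0.63 ± 0.09, adjusted p = 0.0420), and Nle, a factor of large subunit maturation (0.40 ± 0.06, adjusted p = 0.0430). The medians of the lists stayed positive under the 3 scalings tried, at 0.17 to 0.20 for biogenesis, 0.09 for translation factors and 0.04 to 0.07 for growth control. Fewer of these 6 genes passed with any single library of the 4 left out, and calls over all genes fell there too. Each such fit leaves a lone library in a group, so its calls are not counted here. With the replicate number as a block Nop60B was the single biogenesis gene called.

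**Figure D5:**
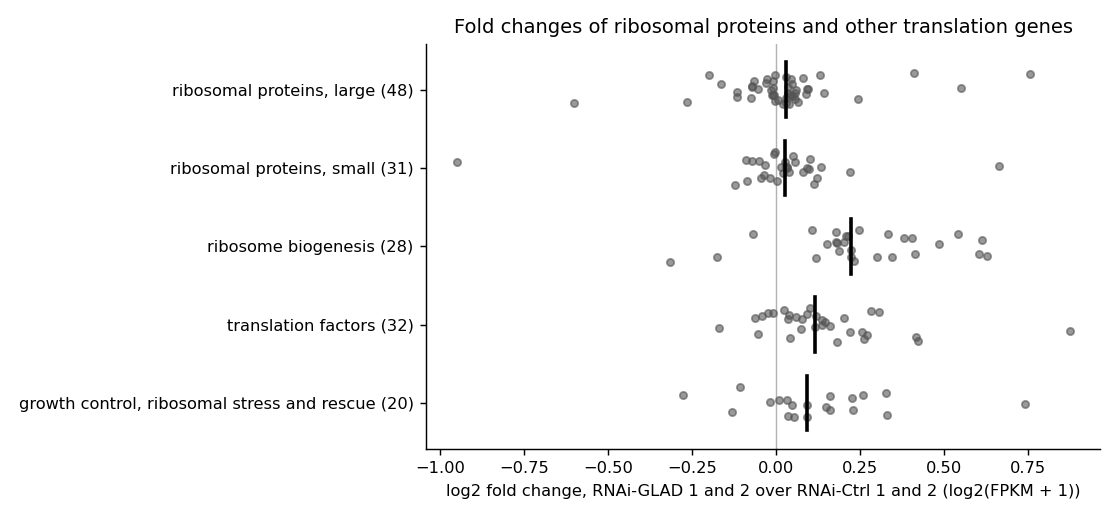
Log2 fold change on the log2(FPKM + 1) scale of RNAi-GLAD 1 and 2 over RNAi-Ctrl 1 and 2 for each tested gene of the family and of 3 lists, with a black bar at the median; the vertical scatter of points within a row has no meaning. Ribosomal proteins centre on 0.03 with single genes far out on both sides, and the biogenesis genes centre on 0.22.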

How the data were processed

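The authors deposited a table of FPKM values, 15886 rows by 6 libraries of 150 bp paired-end reads. Per the submitters' processing notes, the tool was TopHat and the builds were dm6 and BDGP6. Which tool counted fragments, whether strand was used, how multi-mapping reads were treated and on which annotation is not stated there or in the labels. Of 15682 FlyBase IDs, 15002 matched a symbol; 204 rows lie outside the reference. Coordinates, exon lengths and overlaps come from Ensembl release 115 (BDGP6). No sequences were printed.

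Low FPKM values times exon length were scanned for a common step: at the best total, 34.8% to 42.0% of values below 200 reads came out whole, with a tolerance of 0.02, where chance gives 4%. Reads so recovered sum to 26.6 to 35.4 M, above the implied totals, so totals or lengths are inexact. They served only to describe depth, fragments per gene and counting error, which are therefore approximate.

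Genes averaging 1 FPKM or more were tested as log2(FPKM + 1) with limma 3.58.1 in R 4.3.3 (lmFit, eBayes with trend, two-sided, Benjamini-Hochberg over all genes, threshold 0.05), without further scaling. The code was tested on simulated data. Members, lists and the 4-library comparison were chosen with earlier results of these data known. Named members are those called, all paralogues (RpL37-1 and RpL37-2 were added as a pair after their values were seen), the 6 highest and 6 lowest, and the 10 smallest p in each comparison; 1 member is counted in all totals but its own values are not reported here. RpS26, RpL11 and sta were also named after their values were seen. Alternatives were pseudocounts 0.1 and 0.5, no filter, a mean of 5, 3 scalings, no trend, a replicate block and libraries left out. Python 3.11.15 with matplotlib 3.10.9 drew the figures.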

Additional observations from a re-analysis of the deposited data

How the results depend on the processing

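As labelled, the count of members called stayed at 0 under every pseudocount, filter, scaling, trend setting and single library left out, with the replicate block (0 members) and without both libraries numbered 1 or 2, and became 5 without both libraries numbered 3; the fits without a pair of libraries and all settings for the other lists were chosen after the data were seen. In the 4 libraries the 5 members called became 2 without a filter on low values (RpL18 and RpS21) and 3 without the trend. The share of all genes called went from 5.45% to 1.78% and 1.71% in these fits, and to 9.84% at a mean of 5. Calls of members and of all genes also fell with each library left out, where a lone library is assumed to vary like the other group. With the replicate block the same 5 were called, and the pairing changed no other call of a member. Correlations of same-numbered libraries' deviations from the means of their labelled groups were -0.354, -0.404 and -0.460. These means include the libraries numbered 3, which stood apart from their groups, so the correlations cannot decide on pairing. Numbers were not taken as pairs in the main fits. With quantile scaling 7 were called, RpL40 and RpL41 being added as lower. The large minus small subunit median was 0.003 in the 4 libraries, -0.02 (-0.0161) with quantile scaling, and -0.00948 to 0.0145 with each library left out; as labelled it was -0.00296, and -0.0073 to 0.0096 with each library left out. The median of the members in the 4 libraries, 0.03, lay between -0.00824 and 0.0517 with each library left out. Of the other lists in the 4 libraries, biogenesis calls went from 2 to 0 without a filter or the trend and 4 at a mean of 5. They were 1 with each of the 3 scalings and 1 with the replicate block. Translation factor calls went from 3 to 1 without a filter or the trend. Growth control calls went from 1 to 2 at a mean of 5 and 0 without the trend. Over all genes the share called fell without a filter or the trend and rose at a mean of 5, as given above. It was 4.58% to 5.15% with the 3 scalings and 5.3% with the replicate block. Calls of these lists with a library left out are not counted, as those fits leave a lone library in a group. At a mean of 5, 1 of the biogenesis calls (udd) and 1 of the growth control calls (foxo) were lower in RNAi-GLAD. The members called in the 4 libraries kept their sign there under each alternative, and changed sign only in the comparison of all 6, where they were not called. Log2 fold changes as labelled turned to the other side of 0 without both libraries numbered 1 for RpS18 (-0.011), RpL7-like (-0.0154), RpL34a (-0.0028), RpS14a (-0.0218), RpS28b (-0.0245), RpLP0 (-0.0013), RpLP0-like (-0.0762), RpS15Ab (-0.0308), RpS19a (-0.0046), RpL18 (-0.0439), RpS25 (-0.0209), RpL4 (-0.0168) and RpS30 (-0.0191). Without both numbered 2 they did so for RpL7-like (-0.0219), RpS28b (-0.0461), RpS14b (0.0343), RpL24-like (0.0081), RpS19a (-0.0046), RpS21 (0.0278), RpL18 (-0.0098), RpL7A (0.0579), RpL15 (-0.022), RpL4 (-0.0238) and RpS30 (-0.0406), and without both numbered 3 for RpS14b (0.0497), RpL24 (-0.0149) and RpL38 (0.0056). Scaling turned, as labelled, RpS28b (-0.0056 by median of ratios, -0.0074 by trimmed mean), RpL24 (-0.0133 and -0.0151) and RpS19a (-0.0005 by trimmed mean), and in the 4 libraries RpL38 (-0.0191, -0.0224 and, by quantile, -0.0336), RpS14b (-0.0007), RpL24 (0.0064) and RpL24-like (0.0147, these by quantile). With each library left out, the ranges that crossed 0 as labelled were -0.0371 to 0.114 for RpL7-like, -0.0334 to 0.06 for RpS28b, -0.0795 to 0.0373 for RpS14b, -0.0491 to 0.0085 for RpL24-like, -0.0141 to 0.0538 for RpLP0, -0.026 to 0.0259 for RpL24, -0.004 to 0.0945 for RpS18, -0.0176 to 0.0885 for RpL34a, -0.0189 to 0.0944 for RpS14a, -0.0453 to 0.1237 for RpS15Ab, -0.0087 to 0.0473 for RpS19a and -0.0064 to 0.4489 for eIF6. In the 4 libraries they were -0.0389 to 0.0225 for RpL5, -0.0428 to 0.1423 for RpS14b, -0.0833 to 0.009 for RpS13, -0.0365 to 0.0067 for RpL24, -0.065 to 0.0502 for RpL24-like, -0.0419 to 0.016 for RpL10Ab, -0.0307 to 0.0419 for RpL38, -0.0038 to 0.0657 for RpLP0 and -0.0617 to 0.0046 for RpL34b. The cause of these changes was not tested. The depth of 22.1 to 29.5 M fragments limits the 8 genes under 1 FPKM; among the abundant members, the spread between libraries was larger than the counting error. With 2 libraries per group chosen with earlier results known, adjusted p-values describe these 4 libraries only. They may not keep their stated error rate and are no independent repeat.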
